A study of Mus musculus with 4 samples.

Results

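Vascular leptomeningeal cells (VLMC) were examined in spatial transcriptomics of the mouse brain, as the column Non_Neuronal_VLMC of the deposited tables of cell type shares. A spot is a small barcoded area of the slide that can hold several cells or parts of cells, and each spot carries the share that the study's authors gave to each of 67 cell types. A spot was counted as a VLMC spot when its VLMC share was above 0. By this rule, 481 of 14809 spots (3.25%) in 4 sagittal sections held VLMC.

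VLMC are fibroblast-like cells of the leptomeninges, the thin membranes that cover the brain, and they also line the larger vessels that pass from the surface into the tissue. They lay down collagens and other matrix of the pial surface and the vessel wall. Endothelial cells (Endo) form the vessel lumen, smooth muscle cells (SMC) wrap arteries and arterioles, pericytes (Peri) wrap capillaries, and perivascular macrophages (PVM) live in the space around vessels. Astrocytes (Astro) close off the tissue beneath the pia with their endfeet.

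Every mouse was wild type on a C57 background. The 4 groups, with 1 section each, were labelled control, resilient, susceptible, and susceptible with ketamine, the last 3 after chronic social defeat stress. The labels say of the control only that it received saline. This procedure exposes a mouse to repeated attacks by an aggressor, and a social interaction test then set apart the resilient and the susceptible mice. Ketamine was injected into the peritoneum at 10 mg/kg and the brain was taken 7 days later, and the mice of the other 3 groups received saline. Neither age nor sex is given in the sources used here. With 1 section per group there was no replicate, so no difference between sections or between kinds of spot could be tested. The 95% intervals in parentheses are exact Clopper-Pearson intervals for counting error alone, and they treat neighbouring spots as independent, which they are not.

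The control section had 3733 spots, the resilient 4156, the susceptible 3443 and the ketamine-treated 3477. Neither gene counts nor spot positions were analysed here. The sequencing depth is therefore unknown, and the name VLMC could not be set against marker genes. Only the types found in the same spots can be set beside the name. Their shares come from the same assignment as the VLMC share, so they are no independent check on it. More VLMC in a spot and more RNA from each of them cannot be told apart. The sections share between 2735 and 3304 array barcodes in pairs. The susceptible and the ketamine-treated section had 15 barcodes that marked a VLMC spot in both, 14.9% of the 101 susceptible and 16.0% of the 94 ketamine-treated VLMC spots among shared barcodes, and the other 5 pairs had between 0 and 6.

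VLMC was a sparse type in every section. It was held by 103 control spots, or 2.76% (95% interval 2.26 to 3.34), and by 139 resilient spots, or 3.34% (2.82 to 3.94). In the susceptible section 111 spots held it, or 3.22% (2.66 to 3.87), and in the ketamine-treated section 128 spots, or 3.68% (3.08 to 4.36). These values placed VLMC between 14th and 17th of the 67 types by the number of spots.

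Where VLMC was kept, it was a large part of the spot. The median VLMC share of a VLMC spot was 35% in the control (lowest 15.2%, highest 100.0%), 39.4% in the resilient (13.3% to 100.0%), 37.7% in the susceptible (12.3% to 100.0%) and 40.6% in the ketamine-treated section (13.04% to 100.0%). The middle part of the values, between the quartiles, ran from 26.6% to 48.0%, from 29.1% to 51.3%, from 27.7% to 57.3% and from 29.4% to 53.8% in the same order. The smallest share above 0 listed for any type was 11.2%, 10.1%, 11.1% and 10.9% in the 4 sections, so every spot outside the rule is listed at 0 and the tables show no smaller VLMC share. Under 20% of the spot was given to VLMC in 10, 10, 10 and 5 VLMC spots.

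VLMC had the highest share of the spot in 43 control, 67 resilient, 50 susceptible and 71 ketamine-treated spots. As a part of the VLMC spots this was 41.7% (32.1 to 51.9), 48.2% (39.7 to 56.8), 45.0% (35.6 to 54.8) and 55.5% (46.4 to 64.3). In the 60, 72, 61 and 57 VLMC spots that another type led, the leader was Astro in 27, 43, 31 and 32 and Oligo, the oligodendrocyte type, in 15, 12, 11 and 13. SMC led 9, 4, 4 and 5 of them, and Endo 3, 3, 6 and 0. VLMC was rarely alone: 27 of the 481 VLMC spots held no other type, 150 held 2 types, 212 held 3, 72 held 4, 15 held 5 and 5 held 6, counting VLMC. A VLMC spot held 2.86, 2.89, 2.68 and 2.82 types on average, against 2.29, 2.34, 2.13 and 2.19 in the other spots that had any type. Picking spots because they hold a given type favours spots with more types. The spots of other types were not set beside these values, so the difference is not shown to be particular to VLMC.

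The VLMC spots lay mainly in 1 of the 17 deposited clusters. Cluster 12 was small, with 60 control, 89 resilient, 71 susceptible and 87 ketamine-treated spots, and VLMC was held by 52, 79, 61 and 73 of them. That was 86.7% of the cluster (75.4 to 94.1), 88.8% (80.3 to 94.5), 85.9% (75.6 to 93.0) and 83.9% (74.5 to 90.9), so the 4 sections lay within 5 points of each other and their intervals overlapped. In the rest of the section VLMC was held by 1.39% (1.04 to 1.82), 1.48% (1.13 to 1.89), 1.48% (1.10 to 1.95) and 1.62% (1.22 to 2.11) of spots. Cluster 12 thus held 50.5%, 56.8%, 55.0% and 57.0% of the VLMC spots of the 4 sections, and 56.4%, 66.1%, 62.3% and 64.9% of the summed VLMC share.

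**Figure D1:**
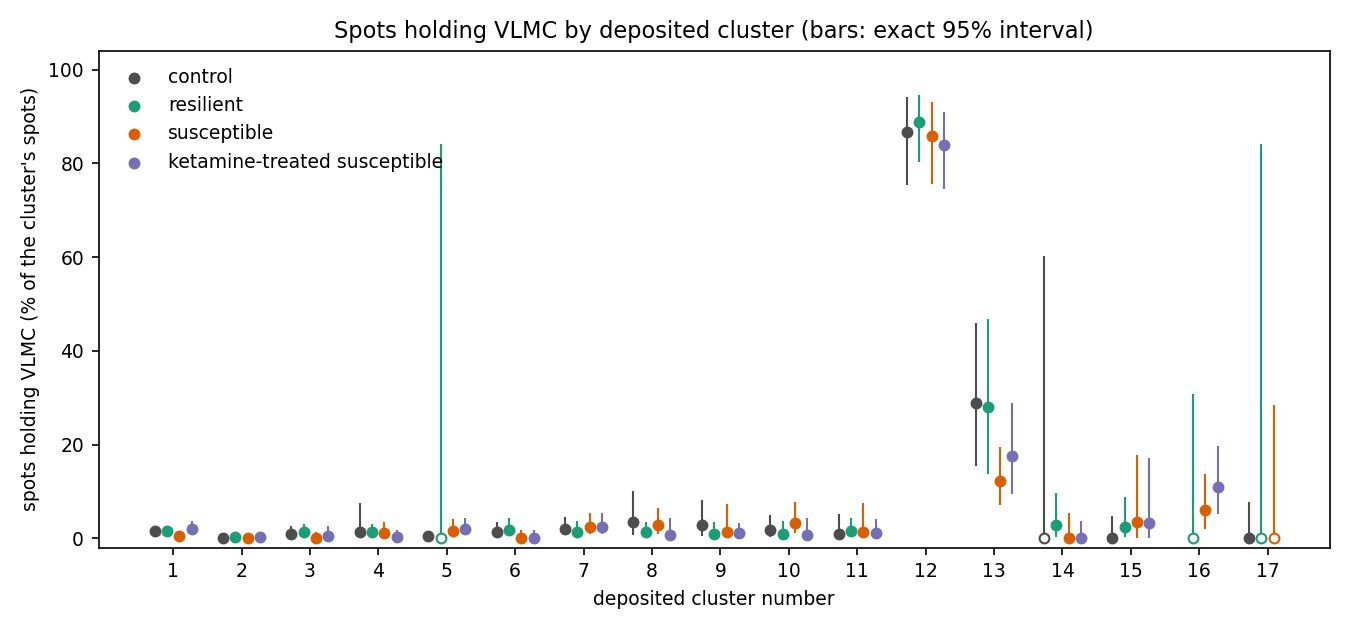
Percent of a cluster's spots that held VLMC (vertical axis) for each deposited cluster (horizontal axis) in the 4 sections, with exact 95% intervals as bars and open points for clusters with under 20 spots. Cluster 12 stands between 83.9% and 88.8% in every section, cluster 13 between 12.3% and 28.9%, and the other clusters with at least 20 spots at or below 11%.

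Of all types held by at least 20 spots of a section, VLMC had the largest part of its spots in cluster 12. It ranked 1st of 38, 45, 40 and 37 types in the control, resilient, susceptible and ketamine-treated section. Cluster 12 was singled out here for its VLMC, so this rank is in part built in. VLMC was not the most concentrated type when each type is taken in its own leading cluster. L6_CT_CTX, a cortical layer type, had 89.9%, 87.1%, 91.3% and 87.3% of its spots in cluster 2. The other vessel-associated types were less concentrated in cluster 12 than VLMC. In control, resilient, susceptible and ketamine-treated order, PVM had 23.7%, 40.3%, 38.2% and 47.4% of its spots in cluster 12. For SMC the values were 33.3%, 32.9%, 32.7% and 37.3%, and for Endo they were 14.4%, 16.0%, 21.2% and 19.1%. The Endo intervals, with an upper end of 31.4% at most, lay below those of VLMC, with a lower end of 40.5% at least. Those of PVM overlapped with the VLMC intervals in all sections but the control, and those of SMC in all but the resilient.

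VLMC also took more of the spot inside cluster 12 than outside it. The median VLMC share of the VLMC spots was 38.8% inside against 31.4% outside in the control, 46.3% against 32.0% in the resilient, 45.9% against 30.9% in the susceptible and 44.4% against 33.6% in the ketamine-treated section. The ranges overlapped widely, from 14.3% to 100.0% inside and from 12.3% to 100.0% outside over all sections. VLMC led 51.9% of its spots inside cluster 12 (37.6 to 66) and 31.4% outside (19.1 to 45.9) in the control, with overlapping intervals. The corresponding values did not overlap in the resilient section, at 64.6% (53.0 to 75) and 26.7% (16.1 to 39.7), or in the ketamine-treated section, at 71.2% (59.4 to 81.2) and 34.5% (22.2 to 48.6). The susceptible section stood at 57.4% (44.1 to 70.0) and 30% (17.9 to 44.6), with intervals that met only at their ends. All but 7 of the 27 spots given wholly to VLMC were in cluster 12.

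**Figure D2:**
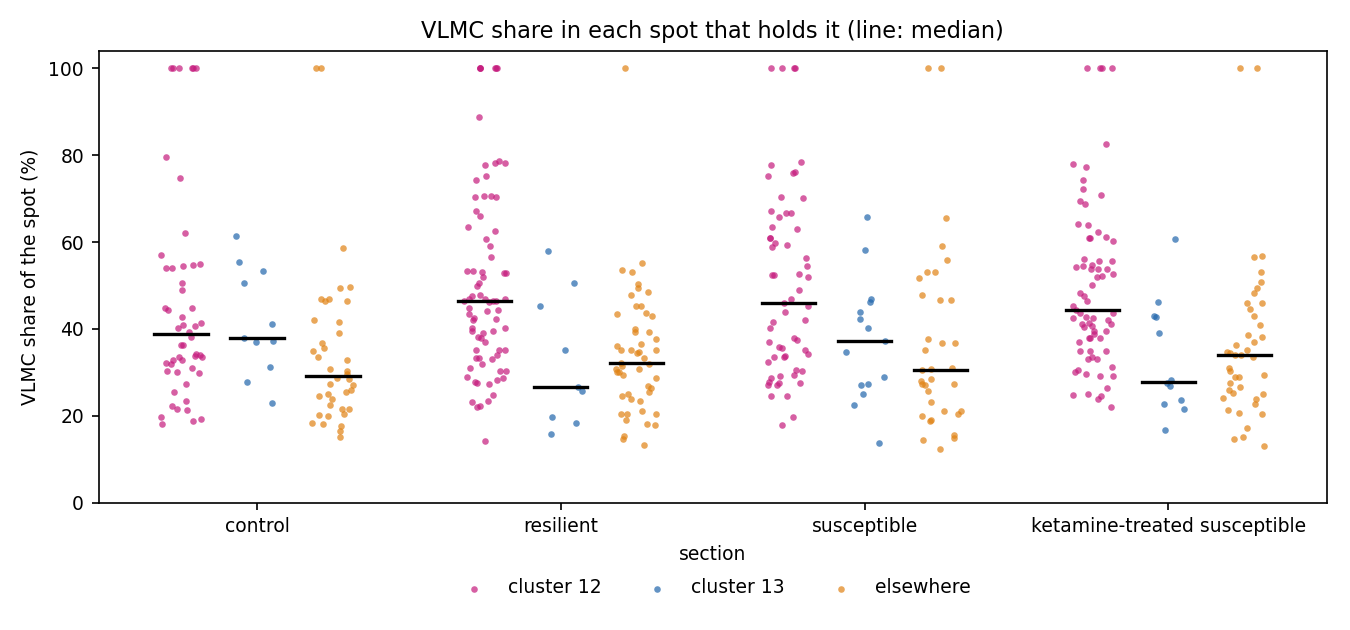
VLMC share of the spot in percent (vertical axis) for each of the 481 VLMC spots, by section and by place (cluster 12, cluster 13 or elsewhere), with the median as a line. The medians of cluster 12, from 38.8% to 46.3%, lie above those of the VLMC spots elsewhere, while the points overlap.

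The few spots of cluster 12 without VLMC were led mostly by astrocyte and vessel types. The control had 8 of them, the resilient 10, the susceptible 10 and the ketamine-treated section 14. Astro led 5, 4, 5 and 6 of them and SMC led 1, 3, 3 and 1. Endo led 1 in the control and 2 in the ketamine-treated section, where PVM also led 2. Neuron types led 1, 3, 2 and 1 of these spots, and Micro and Oligo 1 each in the ketamine-treated section.

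Inside cluster 12 the commonest company of VLMC was Astro and vessel types. At least 1 of Endo, Peri and SMC was found in 46.2% of the control VLMC spots of that cluster (32.2 to 60.5), 39.2% of the resilient (28.4 to 50.9), 42.6% of the susceptible (30.04 to 55.9) and 45.2% of the ketamine-treated ones (33.5 to 57.3). Astro was held by 57.7%, 64.6%, 65.6% and 60.3% of these spots, with a mean share of 20.3%, 21.8%, 25.1% and 20.7%. It was also in 7 of 8, 6 of 10, 7 of 10 and 12 of 14 of the cluster's spots without VLMC. PVM or Micro was in 17.3%, 29.1%, 21.3% and 35.6% of the cluster's VLMC spots. Glutamatergic types were in 23.1%, 12.7%, 8.20% and 6.85% of them, in the control more often than PVM or Micro. Their mean share was 6.40%, 3.85%, 2.74% and 1.96%, and GABAergic types had one of at most 1.42%. Oligo was held by 21.2% of the control, 12.7% of the resilient, 6.56% of the susceptible and 8.22% of the ketamine-treated VLMC spots of the cluster.

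**Figure D3:**
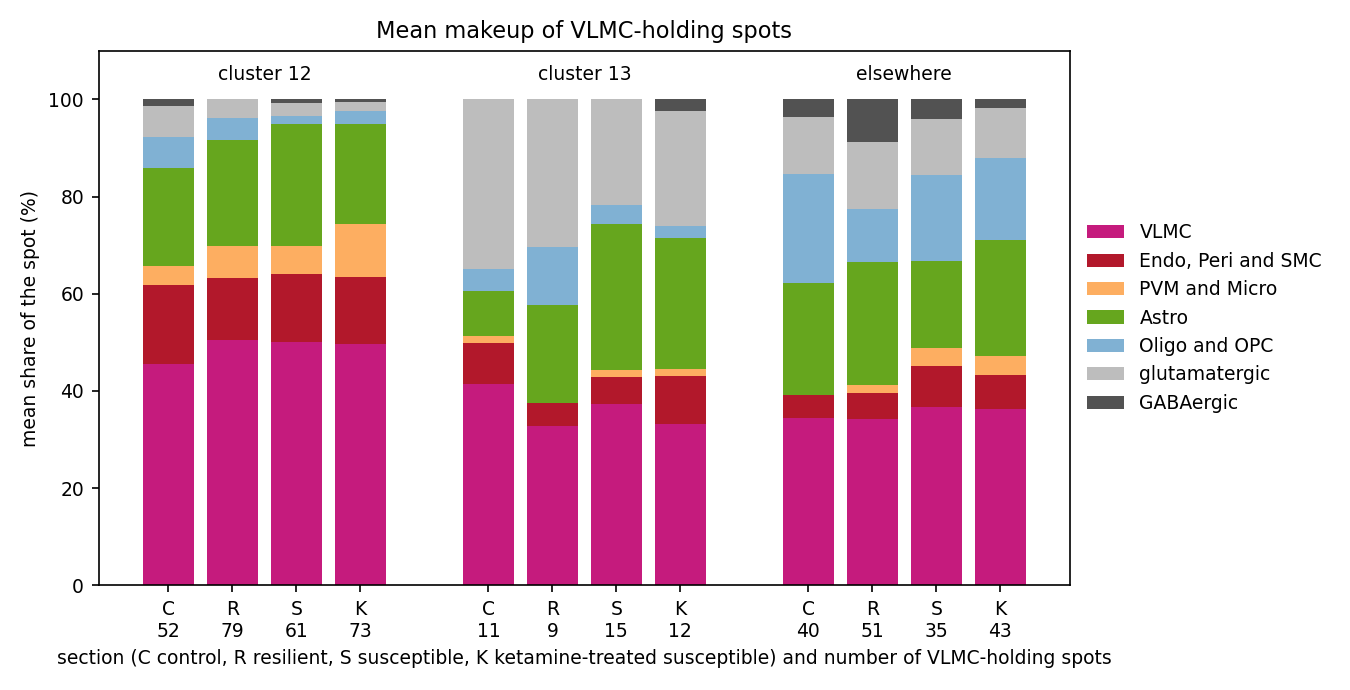
Mean share of the spot in percent (vertical axis, stacked) given to VLMC and to 6 other classes of types in VLMC spots of cluster 12, of cluster 13 and elsewhere, for the control (C), resilient (R), susceptible (S) and ketamine-treated (K) section, with the number of spots below each bar. Vessel types (Endo, Peri and SMC) have 12.7% to 16.1% in cluster 12, glutamatergic types 21.7% to 34.9% in cluster 13, and oligodendrocyte types 10.8% to 22.5% elsewhere.

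Cluster 13 held a smaller group of VLMC spots, whose partners included V3d and Astro. VLMC was in 11 of its 38 control spots, 9 of its 32 resilient spots, 15 of its 122 susceptible spots and 12 of its 68 ketamine-treated spots. That is 28.9% (15.4 to 45.9), 28.1% (13.7 to 46.7), 12.3% (7.05 to 19.5) and 17.6% (9.47 to 28.8). V3d is a type that the headers list as glutamatergic without saying what the name stands for. It was in 9 of the 11 control, 5 of the 9 resilient, 10 of the 15 susceptible and 9 of the 12 ketamine-treated VLMC spots of cluster 13. Among the cluster's spots without VLMC, V3d was in 0 of 27, 6 of 23, 5 of 107 and 3 of 56. All 33 spots that held both VLMC and V3d lay in cluster 13, although it held only 47 of the 115 V3d spots. Astro was in 3, 6, 11 and 9 of the cluster's VLMC spots, with a mean share of 9.30%, 20.3%, 30.1% and 27.0%, and in 19 of 27, 22 of 23, 77 of 107 and 50 of 56 of its other spots. Vessel types were present here too, in 5, 2, 4 and 5 of the cluster's VLMC spots, and Oligo in 2, 4, 2 and 1.

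The remaining 169 VLMC spots were scattered over 14 other clusters, with 40 control, 51 resilient, 35 susceptible and 43 ketamine-treated ones. They made up 1.10% (0.787 to 1.5), 1.26% (0.942 to 1.66), 1.08% (0.751 to 1.49) and 1.29% (0.938 to 1.74) of the spots outside clusters 12 and 13. In these clusters, with at least 20 spots, the median over 53 values (1 per cluster and section) was 1.36%. No VLMC was listed in 7 of the 53. Cluster 2, which has deep cortical layer types, held 6 VLMC spots among its 2906 spots over all sections, and none was listed among the 58 spots of cluster 17, where the Pvalb interneuron type is common. VLMC spots outside clusters 12 and 13 held Astro in 60%, 58.8%, 48.6% and 65.1% and Oligo in 50%, 35.3%, 34.3% and 37.2%, above the Oligo values of cluster 12 in every section.

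Of the clusters elsewhere, 1, 7 and 16 each held at least 5% of the VLMC spots of a section. Cluster 1, the largest of them, had 14 control, 14 resilient, 3 susceptible and 10 ketamine-treated VLMC spots, 1.51%, 1.58%, 0.496% and 2.00% of its spots. In cluster 7, where Oligo is in nearly every spot, the VLMC spots numbered 5, 3, 6 and 6 and all of them held Oligo. Their median VLMC share was low, at 25.5%, 15.4%, 19.0% and 24.5%. Cluster 16 was not present in the control and had 10 resilient spots, none with VLMC, which is too few to set against the other sections. In the susceptible section 5 of its 81 spots held VLMC, or 6.17%, and in the ketamine-treated section 9 of 82, or 11%. Their median VLMC share of 53.0% and 42.9% lay near the 45.9% and 44.4% of cluster 12, with Astro in 3 of 5 and 9 of 9, and Oligo in none. Vessel types were seen in few of them, but 5 and 9 spots are too few to set them apart from cluster 12 in this. At least 1 of Endo, Peri and SMC was in 0 of 5 and 1 of 9, against 42.6% and 45.2% of the VLMC spots of cluster 12.

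The types sharing a spot with VLMC were compared with those in spots without it. For each type, the share of VLMC spots holding it was divided by the share of other spots of the section holding it, and a type counted as over-represented when this ratio was at least 1.5 in all 4 sections, or as under-represented at 1/1.5 or less. Among the 34 types held by at least 20 spots in every section, 4 (11.8%) were over-represented, namely Endo, SMC, PVM and V3d, and 16 (47.1%) were under-represented. A type that merely lies in the same clusters as VLMC can also pass 1.5 over all spots, as it did in the simulated data, so ratios within clusters are given beside these calls. The shares of a spot sum to 1 and no small share is listed, so a ratio below 1 is in part built into the measure.

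Endo was in 19.4% of control VLMC spots (12.3 to 28.4), 19.4% of resilient (13.2 to 27.0), 23.4% of susceptible (15.9 to 32.4) and 21.1% of ketamine-treated ones (14.4 to 29.2). In spots without VLMC it was in 2.31%, 2.91%, 1.77% and 2.63%, which gives ratios of 8.39, 6.67, 13.2 and 8.03. The association was also present away from cluster 12, where the ratios were 7.01, 4.10, 10.3 and 6.50. Set against spots of the same cluster outside cluster 12, they were 4.30, 4.27, 10.4 and 8.84, resting on 8, 7, 9 and 9 spots with both types. Of these spots, 0, 2, 2 and 4 lay in clusters whose other spots held no Endo.

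SMC was in 18.4% (11.5 to 27.3), 15.8% (10.2 to 23.0), 14.4% (8.47 to 22.4) and 18% (11.7 to 25.7) of VLMC spots in the same order, and in 0.964%, 1.20%, 1.17% and 0.836% of the other spots. Its ratios were 19.1, 13.2, 12.3 and 21.5. Of all spots that held SMC, 35.2%, 31.4%, 29.1% and 45.1% also held VLMC. Outside cluster 12 only 4, 3, 3 and 5 spots held both, with ratios of 8.88, 4.55, 5.86 and 11.2. Pericytes, which sit on capillaries, were not over-represented by the rule. Peri was in 0, 2, 1 and 5 VLMC spots, with ratios of 0, 0.803, 0.546 and 2.04. Against the same cluster the Peri ratios were 0, 1.89, 1.76 and 5.15. With cluster 12 also left out they were 0, 1.89, 1.76 and 2.06. So few spots do not settle whether Peri differs from Endo and SMC. Taking 3 spots as the limit for a count of 0, the control allows a share of up to 2.91% of VLMC spots, against 1.79% in the other spots, so a difference was not detectable there.

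PVM had the highest median ratio of the 4 types. It was in 8.74% of control VLMC spots (4.07 to 15.9), 17.3% of resilient (11.4 to 24.6), 15.3% of susceptible (9.18 to 23.4) and 23.4% of ketamine-treated ones (16.4 to 31.7), against 0.799%, 1.07%, 0.510% and 0.806% of other spots. The ratios were 10.9, 16.1, 30.02 and 29.1. Of the spots that held PVM, 9 of 38 control, 24 of 67 resilient, 17 of 34 susceptible and 30 of 57 ketamine-treated ones also held VLMC. Microglia (Micro), the immune cells of the brain tissue itself, were not over-represented, in 1, 3, 4 and 3 VLMC spots, with ratios of 0.291, 0.484, 1.24 and 0.727.

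Inside cluster 12 itself, VLMC spots did not hold these types more often than the cluster's few other spots in every section. SMC was in 15 of 52 control VLMC spots and 3 of the 8 others there, and in 13 of 61 susceptible VLMC spots and 5 of the 10 others. With all clusters matched, the ratios of Endo were 0.936, 1.07, 3.73 and 1.23, and those of SMC 0.933, 0.631, 0.500 and 4.11. For PVM they were 1.12, 0.589 and 2.64 in the control, resilient and ketamine-treated sections. In the susceptible section PVM was in 13 of the 61 VLMC spots of cluster 12 and in none of the 10 others, which gives no ratio there. In cluster 12 these rest on only 8, 10, 10 and 14 spots without VLMC. V3d was in 8.74%, 3.60%, 9.01% and 7.03% of VLMC spots and in 0.579%, 0.523%, 0.600% and 0.597% of other spots, with ratios of 15.1, 6.88, 15.01 and 11.8. With clusters matched V3d was at 1.94, 11.3 and 9.79 in the resilient, susceptible and ketamine-treated sections. In the control, all 9 VLMC spots with V3d lay in cluster 13, where none of the 27 other spots held it, so no ratio is given. With clusters matched and cluster 12 left out, SMC was at 4.65, 0.918, 2.04 and 13.3 and PVM at 0.647, 1.58, 9.67 and 5.26, from 3 to 5 and 1 to 5 spots with both types, of which up to 2 a section lay in clusters whose other spots held none of the type.

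**Figure D4:**
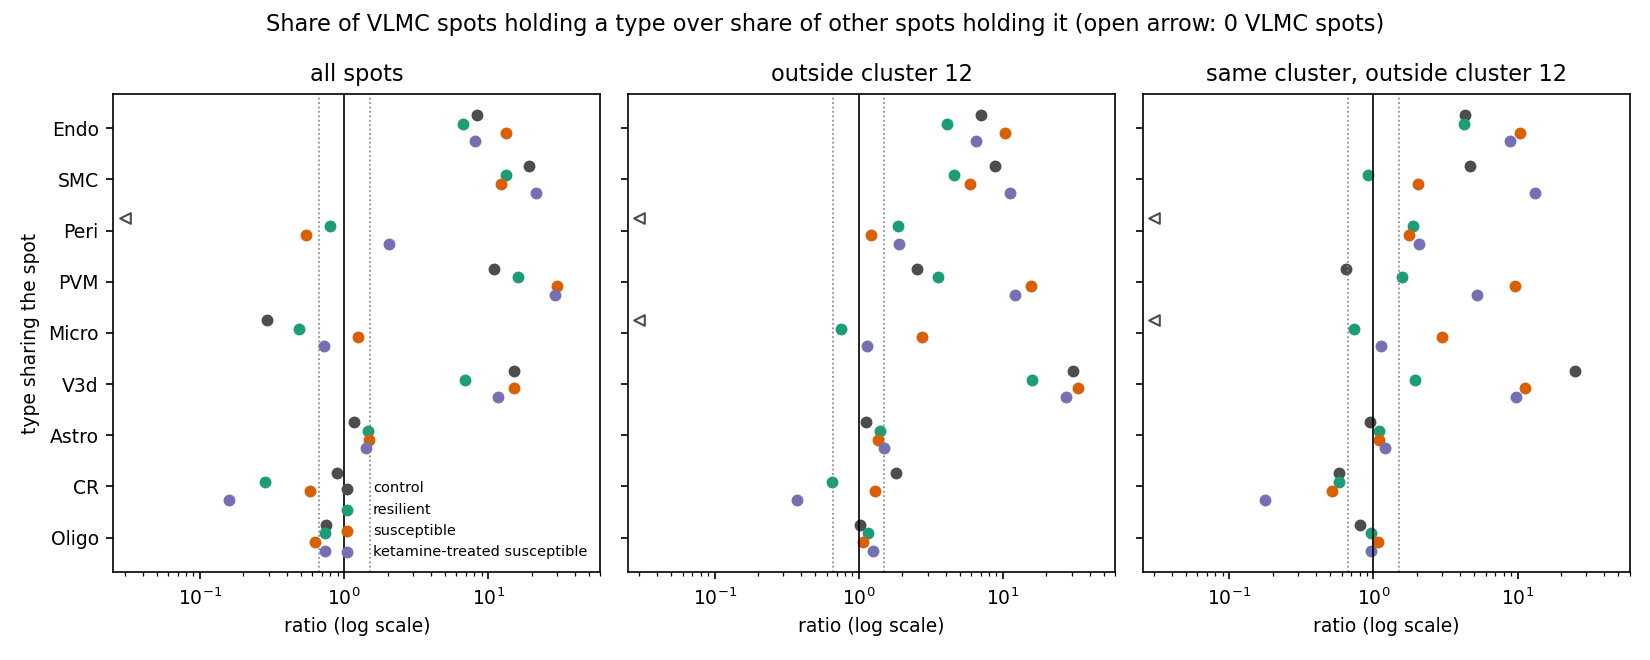
Ratio of the share of VLMC spots holding a type to the share of other spots holding it (horizontal log axis) for 9 types in the 4 sections, over all spots, outside cluster 12, and against the same cluster outside cluster 12. Dotted lines mark 1.5 and 1/1.5, and open arrows mark 0 VLMC spots. Endo and V3d lie right of 1.5 in all panels and sections (the control V3d point of the last panel has no V3d among the other spots of cluster 13 and is no measured ratio), and SMC and PVM do so in the first 2 panels.

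Astrocytes were the commonest partner of VLMC without being over-represented by the rule. Astro was in 55.3% of control VLMC spots (45.2 to 65.1) and 62.6% of resilient (54.0 to 70.6), against 47.2% and 43.04% of other spots. The susceptible values were 61.3% (51.5 to 70.4) against 41.1%, and the ketamine-treated ones 63.3% (54.3 to 71.6) against 44.8%. The ratios of 1.17, 1.45, 1.49 and 1.41 became 1.56, 1.96, 2.01 and 1.77 when the mean Astro share of the part of the spot not given to VLMC was used, which is past 1.5 in all sections. Against the same cluster, Astro stood at 0.768, 1.08, 0.997 and 0.867. CR, named for Cajal-Retzius cells, early-born neurons of the outermost cortical layer, was in only 2, 2, 4 and 1 VLMC spots, with ratios of 0.892, 0.282, 0.583 and 0.159. Against the same cluster, CR stood at 0.579, 0.577, 0.201 and 0.0922, under 1/1.5 in all sections, from these few spots. Oligo was in 32.04%, 23.02%, 16.2% and 18% of VLMC spots, with ratios of 0.753, 0.732, 0.624 and 0.737 that were 1.01, 1.17, 1.08 and 1.26 outside cluster 12.

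The under-represented types were all neurons, as were most of the 34 types compared, so this in part reflects which types were compared. CA1 pyramidal neurons of the hippocampus, held by 75, 63, 53 and 48 spots, were in none of the 481 VLMC spots. By the same limit of 3 spots, the counts of 0 allow up to 2.91%, 2.16%, 2.70% and 2.34% of the VLMC spots of the 4 sections. CA1 was in 2.07%, 1.57%, 1.59% and 1.43% of other spots, so a lower share was not detectable within any 1 section. L2_3_IT_CTX, L2_3_IT_ENTl and L6b_CT_ENT, cortical and entorhinal layer types, were each in 1 VLMC spot over all sections, and L5_IT_TPE_ENT and L6_CT_CTX in 2 each. Sst_Chodl, a long-range somatostatin interneuron, was in 4, L5_IT_CTX in 6, L5_PT_RSP_ACA in 8 and L4_5_IT_TPE_ENT in 10. When clusters were matched, 4 types were under-represented in all sections, of which 3 were among the 16: CA1, L2_3_IT_ENTl and L2_IT_RSP_ACA. The other was CR.

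The deposited t-SNE map, a plane on which like spots are placed near each other, gave another view of the VLMC spots. Its input is not stated, and it comes from the same libraries as the clusters and the shares. For each spot, the 10 nearest spots of its own section were taken. Around VLMC spots of cluster 12, 87.9%, 86.5%, 91.3% and 90.5% of these neighbours also held VLMC in the control, resilient, susceptible and ketamine-treated sections. These values lay near the 83.9% to 88.8% of the cluster's spots that held VLMC, so they in part restate cluster membership. Around the cluster's few spots without VLMC they were lower in every section, from 42.1% in the ketamine-treated to 77% in the resilient section. Around the VLMC spots of cluster 13 the values were 100.0%, 24.4%, 60% and 62.5%, against 4.44%, 19.1%, 4.39% and 4.82% around the cluster's spots without VLMC. The VLMC spots elsewhere had few VLMC neighbours, at 7.50%, 5.88%, 16.6% and 17.7%, but more than the 1.00%, 1.16%, 0.883% and 1.10% around other spots elsewhere. No neighbour held VLMC for 20 of the 40, 31 of the 51, 14 of the 35 and 20 of the 43 VLMC spots elsewhere.

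On the map, the VLMC spots of cluster 12 formed 1 band and those of cluster 13 formed a pair of small groups. The lower group, below -61 on the second axis (a line drawn after seeing the map), held 11, 5, 16 and 7 spots in all, and 11, 4, 8 and 6 of these held VLMC. V3d shared 9, 4, 5 and 5 of them. In the upper part of cluster 13, VLMC was in 0 of 27, 5 of 27, 7 of 106 and 6 of 61 spots, and its median share there was 19.7%, 27.2% and 25.3% in the resilient, susceptible and ketamine-treated sections, below the 47.9%, 44.2% and 42.9% of the lower group. The 4 sections were mixed within cluster 12. Of the 10 nearest spots from any section, 25%, 34.2%, 29.3% and 28.4% came from the VLMC spot's own section, against 19.6%, 29.8%, 23.02% and 27.5% of all VLMC spots of cluster 12 that this section supplied.

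**Figure D5:**
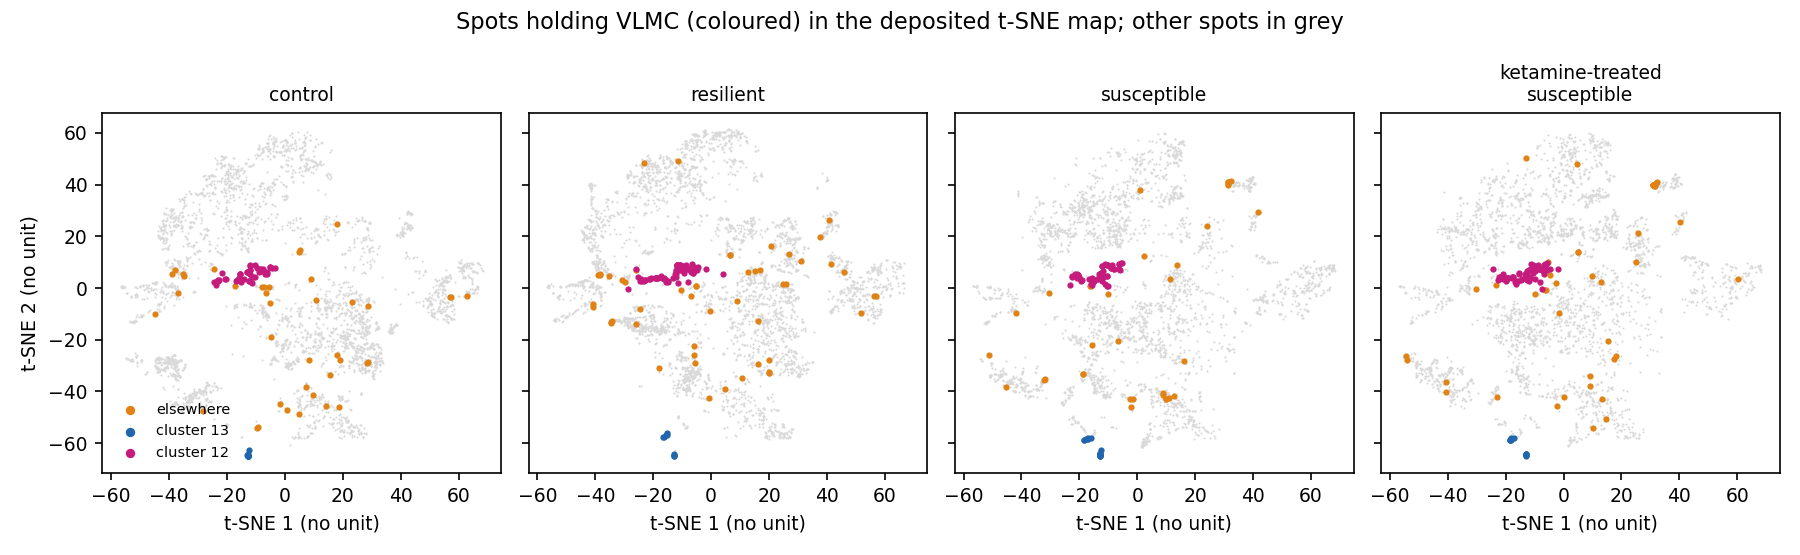
Position of every spot on the deposited t-SNE map (both axes without unit), 1 panel per section, with VLMC spots coloured by place and other spots in grey. The VLMC spots of cluster 12 form 1 band at the same position in all 4 panels, those of cluster 13 lie in a pair of groups, 1 of them at the lower edge, and the other VLMC spots are spread over the map.

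The share of spots holding VLMC was then compared between the sections, with types held by at least 20 spots in either section as background. The susceptible section was set against the control to ask what accompanied susceptibility to the stress. The labels say of the control only that it received saline, so this pair cannot tell susceptibility from the stress itself. The susceptible section stood at 3.22% against 2.76% of spots, a ratio of 1.17. Of 41 types, 36.6% differed by at least 1.5-fold in this pair and 31.7% had intervals that did not overlap. The resilient section had 1.21 times the control share, where 44.4% of 45 types differed by 1.5-fold and 40% had intervals apart. The susceptible section had 0.964 times the resilient share (43.5% of 46 types past 1.5-fold, 39.1% with intervals apart). The ketamine-treated section had 1.14 times the susceptible share, where these backgrounds were 19.5% and 9.76% of 41 types. It had 1.33 times the control share, with backgrounds of 25% and 20% of 40 types, and 1.10 times the resilient share, with 40% and 33.3% of 45 types. VLMC did not differ by 1.5-fold in any of the 6 pairs, and its intervals overlapped in all of them. With 1 section per group, these values do not show that the groups are alike.

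The size of cluster 12 followed the same order of the sections. It took 1.61% of control spots (1.23 to 2.06), 2.14% of resilient (1.72 to 2.63), 2.06% of susceptible (1.61 to 2.59) and 2.50% (2.01 to 3.08) of ketamine-treated spots. The difference between the ketamine-treated and the control section was 0.922 points. Of these, 1.16 were counted under unequal proportions of the clusters and -0.240 under unequal VLMC holding within clusters. For the susceptible against the control section the parts were 1.04 and -0.574 of 0.465 points, and for the resilient against the control 0.612 and -0.0262 of 0.585. Most spots of cluster 12 are VLMC spots, so its size nearly restates the VLMC count. Cluster 16, absent from the control, also counted wholly as unequal proportions. The split is thus in part built in and does not show where the differences came from. With equal weights for the 13 clusters that had at least 20 spots in every section, the control came out highest. The equally weighted values were 3.84%, 3.77%, 3.13% and 3.29% for the control, resilient, susceptible and ketamine-treated sections. This setting gives the small cluster 13 as much weight as any other. There VLMC was in 28.9% of 38 control spots, against 12.3% of 122 susceptible and 17.6% of 68 ketamine-treated spots. Cluster 16, with VLMC in 11% of its ketamine-treated spots, was left out. How much meninges and large vessel each cutting plane contained was not measured and cannot be told apart from the group.

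The count of spots led by VLMC gave the largest ratio between sections. VLMC led 1.15% of control spots (0.835 to 1.55), 1.61% of resilient (1.25 to 2.04), 1.45% of susceptible (1.08 to 1.91) and 2.04% (1.6 to 2.57) of ketamine-treated spots. The intervals of the control and the ketamine-treated section did not overlap, as for 28% of the 25 types that led at least 20 spots of either section. The ratio was 1.77, where 40% of these types differed by 1.5-fold. The other 5 pairs had ratios from 0.901 to 1.41, below 1.5-fold, which 28% to 55.6% of the types reached in them.

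Among the partners, PVM was the one whose presence in VLMC spots differed beyond the counting intervals, in 1 pair of sections. It was in 9 control and 30 ketamine-treated VLMC spots, the 8.74% and 23.4% given above, and these intervals did not overlap. Of the 6 types held by at least 10 VLMC spots of any section, 1 (16.7%) had intervals apart in this pair. That 1 type is PVM itself, so the 6 types give no separate background. In the other 5 pairs of sections none of the 6 types had intervals apart. Within cluster 12, PVM was in 8 of 52 control, 22 of 79 resilient, 13 of 61 susceptible and 25 of 73 ketamine-treated VLMC spots. PVM was also in more spots of the whole section in the ketamine-treated than in the control section, 57 of 3477 against 38 of 3733. In the resilient section it was in 67 of 4156 spots, near the ketamine-treated share. The susceptible section, with 34 of 3443, lay near the control.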

How the data were processed

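Each deposited table lists the spots of 1 section in rows. Per the file headers, its columns hold the cluster of the spot and, for each of 67 types and for unknown, the fraction assigned by the authors. The fractions of a spot sum to 1 and were used in percent. A deposited t-SNE table gives 2 coordinates per spot, a score without unit. The submitters' processing notes name mm10 as genome build. Neither the clustering nor the method of cell type assignment is given in the sources used here. The cluster numbers were taken as 1 clustering of all sections. Each of the 4 barcode suffixes of the t-SNE table matched the barcodes of exactly 1 section.

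Counts of spots, ratios, exact Clopper-Pearson 95% intervals and nearest neighbours were computed in Python 3.11.15 with pandas 2.3.3, numpy 2.4.6 and SciPy 1.17.1. In matched ratios, the number of VLMC spots holding a type was divided by the number expected from spots without VLMC of the same cluster and section. Differences between sections were split by cluster; a cluster with under 20 spots in either section counted wholly as unequal proportions. The ratios were tried on simulated data, where a type bound to VLMC only through cluster 12 passed 1.5 over all spots and lay near 1 when matched. VLMC was set there in a smaller part of cluster 12, and in a larger part of the rest, than in the data. The simulation thus left more spots of cluster 12 for comparison than the 8 to 14 per section here. How far matched ratios scatter with so few spots was not tested. Alternatives covered the definition of a VLMC spot, cluster 12, cluster matching, the ratio and the number of neighbours. Types named are the vessel, immune and surface types, Oligo, and up to 10 types per direction; clusters named hold at least 5% of the VLMC spots of a section. The members, lists and rules were chosen with earlier results of these data known.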

Additional observations from a re-analysis of the deposited data

How the results depend on the processing

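No paired analysis was possible because each group had 1 section. Spots led by VLMC, in place of spots holding it, made up 1.15%, 1.61%, 1.45% and 2.04% of the control, resilient, susceptible and ketamine-treated section. Without cluster 12 the shares of spots holding VLMC were 1.39%, 1.48%, 1.48% and 1.62%. A single threshold, a minimum share of 20% or leaving out unknown spots kept all 4 shares within their intervals. With equal cluster weights the differences from the control became -0.707 points for the susceptible and -0.553 for the ketamine-treated section; the resilient section also fell below the control, and the ketamine-treated below the resilient. Without cluster 12 the susceptible section lay 0.00751 points above the resilient. Cluster 12 held 62.8%, 76.1%, 70.0% and 73.2% of the spots led by VLMC, and 66.1% of the summed share in the resilient section.

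The 4 over-represented types became 1 when clusters were matched and 2 when cluster 12 was also left out, and the 16 under-represented types became 4 and 6. The V3d count under matching includes a control value with no V3d among the other spots of cluster 13. The last setting, and all alternatives for under-represented types, were added after seeing the data. A ratio is called turned here where it was past 1.5 or under 1/1.5 in a section and then crossed 1, among the types named in the report. Matching turned the ratio of Endo in the control (0.936), of SMC in the control (0.933), resilient (0.631) and susceptible section (0.500), and of PVM in the resilient section (0.589). It also turned Peri (1.76) and L2_3_IT_CTX (2.14) in the susceptible, L5_IT_TPE_ENT (1.06) and L6b_CT_ENT (2.91) in the resilient, and L6_CT_CTX (2.40) in the control section. Matched without cluster 12, SMC in the resilient (0.918) and PVM in the control section (0.647) turned, as did Oligo in the susceptible (1.07) and L4_5_IT_TPE_ENT in the ketamine-treated section (1.12), and the values for Peri (1.76), L5_IT_TPE_ENT (1.06) and L6b_CT_ENT (2.91) were as above. Without matching, but outside cluster 12, Peri (1.21), CR (1.30) and Oligo (1.08) turned in the susceptible and L6b_CT_ENT (1.15) in the resilient section. Ratios nearer 1 also crossed it, Oligo outside cluster 12 in the other 3 sections among them. Of types not named in the report, L2_IT_RSPv, L3_RSP_ACA and L6b_CTX crossed it under matching in 1, 2 and 2 sections, and these and Meis2 did so outside cluster 12. The cause was not tested. With 30 t-SNE neighbours, added after seeing the data, the cluster 13 values were 40.0%, 21.9%, 34.2% and 27.2%, and with 5 they were 100.0%, 37.8%, 68.0% and 76.7%. Depth is unknown, and shares under about 10% of a spot are not in the tables.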
